A study of Rattus norvegicus with 24 samples.

Results

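KCC2 and NKCC1, encoded by Slc12a5 and Slc12a2, are the membrane cotransporters that set the chloride level inside neurons. Their transcripts were measured in the rat dorsal horn, the part of the spinal cord where sensory nerve fibres end, after spared nerve injury (SNI). Every probe set whose only platform symbol was Slc12a5 or Slc12a2 was taken, without use of any measured value. This gave 1 probe set for each gene (Entrez genes 171373 and 83629), or 2 of the 10411 genes with a probe set of a single symbol. The 4 groups of 6 Affymetrix Rat Expression 230A arrays were adult SNI, adult sham, neonate SNI and neonate sham, all from Sprague-Dawley rats. Adults were 8 to 12 weeks old and neonates were labelled postnatal day 10, and the labels leave unstated whether surgery or tissue collection took place then. Under isoflurane, SNI tied and cut the tibial and common peroneal nerves and spared the sural nerve, and sham surgery only exposed the sciatic nerve. Tissue came from the operated side, 7 days after injury, and pups were returned to their mothers. The labels name no genetic change and call the arrays biological replicates, without saying whether animals were pooled.

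KCC2 carries potassium and chloride out of the cell, and NKCC1 carries sodium, potassium and chloride into it. Their balance decides whether chloride channels opened by GABA and glycine inhibit or depolarise a neuron. KCC2 is largely confined to neurons, and in rodents its rise during late fetal and early postnatal life accompanies the change of GABA from a depolarising to an inhibitory transmitter. NKCC1 is made by neurons, glia, sensory ganglion cells and secretory epithelia. In the rat dorsal horn, a loss of KCC2 protein after nerve injury, driven by BDNF from microglia, is a well-known proposal for how inhibition weakens in neuropathic pain. An array reads transcripts and not protein, its phosphorylation or its place in the membrane.

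The stretch just before each gene's annotated start is shown because regulators known at the KCC2 gene were among the transcripts measured. The sequences are from RefSeq (build GRCr8), both on the plus strand, with the GC box GGGCGG, a site read by Sp1-type factors, in capitals. The Slc12a5 stretch is chr3:174115583-174115832, and the Slc12a2 stretch is chr18:53546083-53546262.
Slc12a5: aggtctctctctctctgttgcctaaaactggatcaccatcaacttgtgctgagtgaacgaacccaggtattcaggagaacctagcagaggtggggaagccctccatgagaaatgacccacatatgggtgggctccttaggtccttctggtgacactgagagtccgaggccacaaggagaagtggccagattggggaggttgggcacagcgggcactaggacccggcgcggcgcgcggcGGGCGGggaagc
Slc12a2: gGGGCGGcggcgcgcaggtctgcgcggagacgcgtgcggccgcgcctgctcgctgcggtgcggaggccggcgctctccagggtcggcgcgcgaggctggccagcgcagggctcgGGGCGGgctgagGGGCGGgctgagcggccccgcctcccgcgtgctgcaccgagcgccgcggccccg
In windows of 250 bases before the start in the promoter table, both strands searched, Slc12a5 held 1 GC box and Slc12a2 held 3. At least 1 GC box was present in 30.5% of the 33469 rat promoter windows of that length, and at least 3 in 7.41%. The Slc12a2 window was 83.2% G and C with 48 CpG pairs, and 99.6% of all windows had a lower share of G and C. The Slc12a5 window was 59.2% G and C with 11 CpG pairs, and 73.0% of all windows lay lower. The medians over all windows were 51.2% and 5 CpG pairs. Each window held 1 match to the general E-box CANNTG, which 65.5% of windows hold. The start in the promoter table lies inside the annotated Slc12a2 gene, so that window runs past the printed stretch, and its E-box lies in the part not printed. Neither window held the USF form CACGTG (5.59% of windows), the EGR form GCGTGGGCG (0.478%), the cyclic AMP element TGACGTCA (1.59%) or TATAAA (12.9%). The matches are descriptions of the letters in these windows.

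The deposited values are log2 expression after GCRMA, a method that corrects background by probe sequence, normalises the arrays together and summarises the probes of a set. Array medians ran from 5.57 to 5.67 log2, the lowest correlation between any pair of arrays was 0.984, and 0 pairs of arrays were identical. How precisely any value is known is limited by the 6 arrays of each group. Of the neuron markers on the array, all 16 general, all 4 inhibitory and 4 of 5 excitatory ones passed the filter on low values. That filter was passed by 9638 of the 15866 probe sets used. All 10 astrocyte, 8 oligodendrocyte and 7 fibroblast and meningeal markers on the array also passed, so passing does not set neurons apart. The means of 3 primary sensory neuron markers ran from 3.82 to 8.63 log2 over the arrays and those of 7 fibroblast and meningeal markers from 7.49 to 9.58 log2. Their part in the results below was not tested.

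Both cotransporters gave bright signals in every group, and neither passed the test in any comparison of groups. Slc12a5 had a lowest, median and highest value of 13.43, 13.69 and 13.75 log2 in adult SNI, and of 13.66, 13.75 and 13.83 log2 in adult sham. In neonate SNI these were 13.52, 13.66 and 13.99 log2, and in neonate sham 13.71, 13.80 and 13.89 log2. The 24 values of Slc12a5 thus lay within a narrow band in which all groups overlap, and both extremes, adult SNI 2 and neonate SNI 5, were arrays of injured animals. Slc12a2 had 12.03, 12.21 and 12.54 log2 in adult SNI, and 11.97, 12.26 and 12.64 log2 in adult sham. In neonate SNI it had 11.74, 12.08 and 12.29 log2, and in neonate sham 11.89, 12.21 and 12.33 log2. The highest Slc12a2 value was on adult sham 4 and the lowest on neonate SNI 5, the array with the highest Slc12a5 value.

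By group mean, Slc12a5 was ordered neonate sham (13.81 ± 0.069 log2, SD, n = 6), adult sham (13.74 ± 0.072), neonate SNI (13.71 ± 0.17) and adult SNI (13.65 ± 0.12). For Slc12a2 the order was adult sham (12.27 ± 0.24), adult SNI (12.25 ± 0.19), neonate sham (12.17 ± 0.16) and neonate SNI (12.06 ± 0.21). No neighbours in either order differed beyond their spread, and the arrays of the first and the last group overlapped for both genes. On each array Slc12a5 was brighter than 99.69% to 99.87% of probe sets and Slc12a2 brighter than 97.3% to 99.0%. These are ranks of signal, which do not order the amounts of the 2 transcripts because probes differ in affinity. Array maxima were 14.88 to 15.40 log2, and how far bright probes are compressed near that limit was not tested. The residual SD was 0.117 log2 for Slc12a5, with 6.23% of the 9638 tested probe sets lower, and 0.201 log2 for Slc12a2, with 42.8% lower. The median was 0.216 log2 over all tested probe sets and 0.157 log2 over those with a mean above 11 log2.

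**Figure D1:**
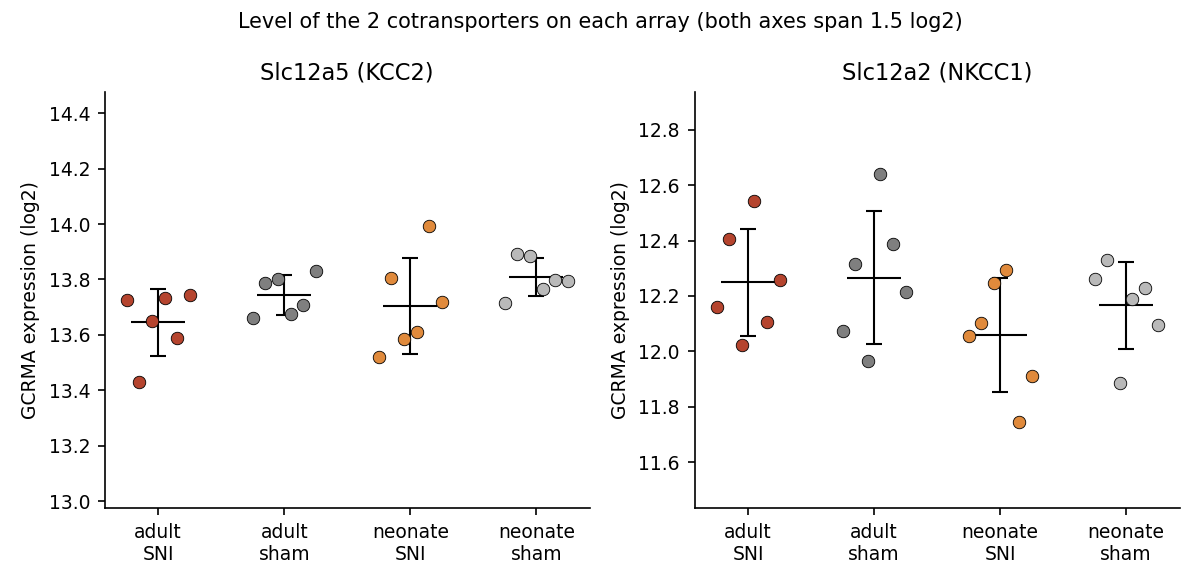
Log2 GCRMA expression of Slc12a5 (left) and Slc12a2 (right) on each of the 24 arrays, one point per array, with horizontal bars at the group mean and error bars of 1 SD (n = 6). Both axes span the same range, and the points of all 4 groups overlap for each gene.

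Adult SNI against adult sham asks whether the chloride exporter fell or the importer rose after nerve injury, and neither passed the test. Slc12a5 differed by -0.10 log2 (SE 0.077, 95% interval -0.26 to 0.060, limma adjusted p = 0.882), a change of -6.60% with an interval of -16.3% to 4.21%. All 6 SNI arrays lay below the median of the sham arrays, but 3 of them lay within the sham range. Slc12a2 differed by -0.017 log2 (SE 0.12, 95% interval -0.26 to 0.22, limma adjusted p = 0.995), or -1.15% with an interval of -16.2% to 16.6%. In limma, 2.00% of the 9638 tested probe sets were called in this contrast (193, or 291 with the replicate number as a block within age), and 1.78% had groups that did not overlap. Of the cotransporters 0 of 2 were called, 0 of 2 at an unadjusted p under 0.05, and both overlapped. Nor was either among the 0.0519% called lower. The block left both uncalled, with adjusted p of 0.577 for Slc12a5 and 0.958 for Slc12a2. In such bulk tissue fewer cells of a type and less RNA per cell cannot be told apart, and a change limited to a few neurons would be diluted to an unknown degree.

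In neonates the injury differences were of the same small size. Slc12a5 differed by -0.10 log2 (SE 0.077, 95% interval -0.26 to 0.055, limma adjusted p = 1), or -6.86% with an interval of -16.5% to 3.92%. Neonate SNI 5, at 13.99 log2, stood above all other arrays, and without it the difference was -0.16 log2 (limma adjusted p = 1). Slc12a2 differed by -0.11 log2 (SE 0.12, 95% interval -0.35 to 0.13, limma adjusted p = 1), or -7.12% with an interval of -21.3% to 9.58%. Without the same array, neonate SNI 5, that difference was -0.044 log2. Of all tested probe sets 0.311% were called in neonates and 0.467% did not overlap, against 0 of the 2 cotransporters by either measure and 0 at an unadjusted p under 0.05. The injury effect in adults minus that in neonates was 0.0041 log2 for Slc12a5 (95% interval -0.22 to 0.23) and 0.090 log2 for Slc12a2 (-0.25 to 0.43). Neither was called (limma adjusted p = 1.00 for both, and 0.228% of all tested probe sets called), with 0 of 2 at an unadjusted p under 0.05.

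Age was set against the same cotransporters in sham and in injured animals. In sham, adults minus neonates, Slc12a5 differed by -0.064 log2 (SE 0.077, 95% interval -0.22 to 0.094, limma adjusted p = 0.633), or -4.34% with an interval of -14.3% to 6.73%. Slc12a2 differed by 0.10 log2 (SE 0.12, 95% interval -0.14 to 0.34, limma adjusted p = 0.617), or 7.20% with an interval of -9.14% to 26.5%, and by 0.026 log2 without adult sham 4. This contrast called 16.3% of all tested probe sets, and 8.36% of them had groups that did not overlap, against 0 of 2 cotransporters in both counts. After SNI, adults minus neonates, Slc12a5 differed by -0.060 log2 (95% interval -0.22 to 0.098, limma adjusted p = 0.635), or -0.0025 log2 without neonate SNI 5. Slc12a2 differed by 0.19 log2 (95% interval -0.048 to 0.43, limma adjusted p = 0.269), with 5 of 6 adult SNI arrays above the neonate SNI median. In this contrast 20.9% of all tested probe sets were called and 8.93% did not overlap, again against 0 of 2. The unadjusted p of 0.113 for Slc12a2 in injured animals was the lowest of the 10 tests of the cotransporters.

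**Figure D2:**
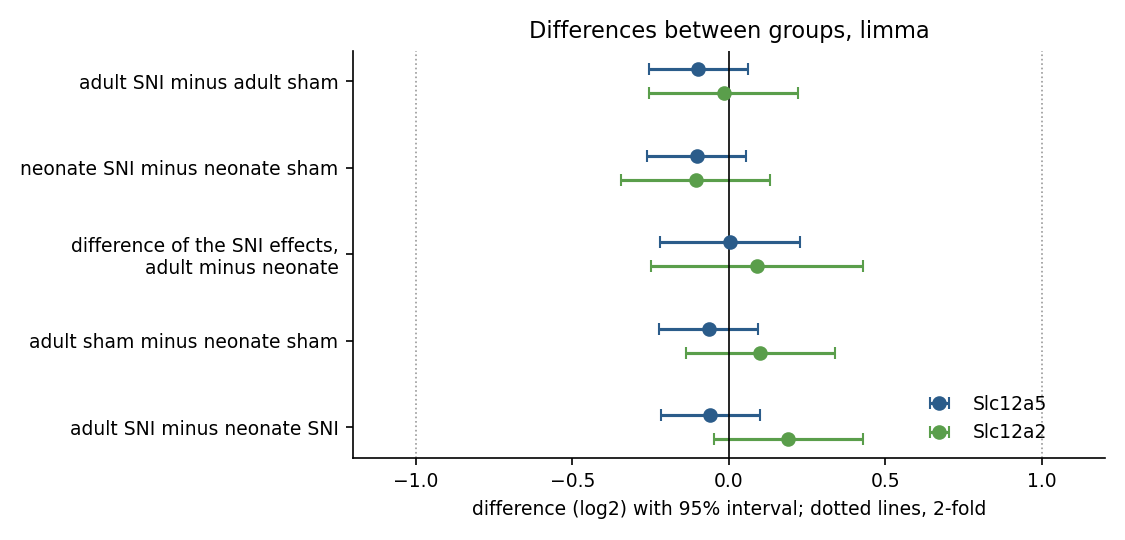
Differences between groups for Slc12a5 and Slc12a2 from limma, as log2 with 95% intervals, for the 5 contrasts (first group minus second). Every interval includes 0 and lies within the dotted lines at 2-fold.

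The difference of the probe sets, Slc12a5 minus Slc12a2 on the same array, was followed as a measure of their relative signal, and no test was made of it. It says how arrays differ and not which transcript was more abundant. It averaged 1.40 ± 0.23 log2 in adult SNI, 1.48 ± 0.28 in adult sham, 1.65 ± 0.35 in neonate SNI and 1.64 ± 0.19 in neonate sham (SD, n = 6 each). The lowest value, 1.03 log2, was on adult SNI 2, and the highest, 2.25 log2, on neonate SNI 5. Adult SNI minus adult sham was -0.082 log2 (SE 0.16, 95% interval -0.41 to 0.24), and neonate SNI minus neonate sham was 0.0040 log2 (-0.32 to 0.33). Adults minus neonates gave -0.16 log2 in sham (-0.49 to 0.16) and -0.25 log2 after SNI (-0.58 to 0.076). The groups overlapped in each of these comparisons. Leaving out 1 array moved the adult injury value to -0.17 log2 (without adult sham 4) or -0.0079 log2 (without adult SNI 2). The neonate value became -0.12 log2 without neonate SNI 5 and 0.075 log2 without neonate sham 3. The age values came to -0.076 log2 in sham without adult sham 4 and -0.13 log2 after SNI without neonate SNI 5.

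**Figure D3:**
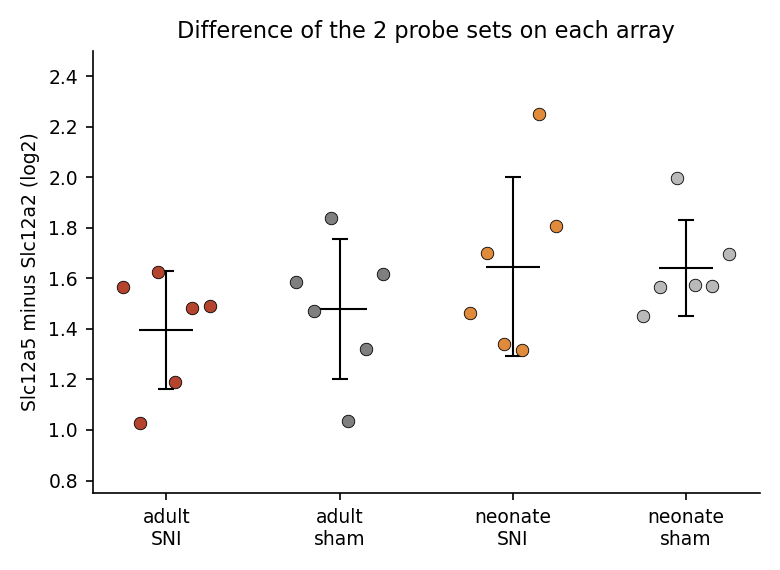
Slc12a5 minus Slc12a2 on each of the 24 arrays (log2), one point per array, with the group mean and 1 SD (n = 6). The groups overlap, and neonate SNI 5 at 2.25 log2 is the highest point.

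Deviations from the group means of the cotransporters ran weakly opposite over the 24 arrays (Pearson r = -0.41, permutation p = 0.050, adjusted p = 0.250; Spearman rho = -0.33, permutation p = 0.113, adjusted p = 0.567, 5 relations). Without the 2 arrays farthest from the median r was -0.21. Within groups r was -0.063 in adult SNI, -0.40 in adult sham, -0.74 in neonate SNI and -0.31 in neonate sham, with exact permutation p of 0.853, 0.428, 0.119 and 0.575 (n = 6 each). The relation did not pass in the pooled arrays after adjustment or within any group, and the arrays share a normalisation. The deviations were also set out by the replicate number in the labels, whose meaning they do not give, without a test. For Slc12a2 the 4 arrays numbered 4 lay on average 0.23 log2 above their group means, all of them higher (0.024 to 0.37 log2). The 4 arrays numbered 2 were all higher too, by 0.10 log2 on average (0.044 to 0.16 log2). Those numbered 3 averaged -0.15 log2 (-0.30 to 0.19). For Slc12a5 the mean deviation of a number lay between -0.070 and 0.047 log2.

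**Figure D4:**
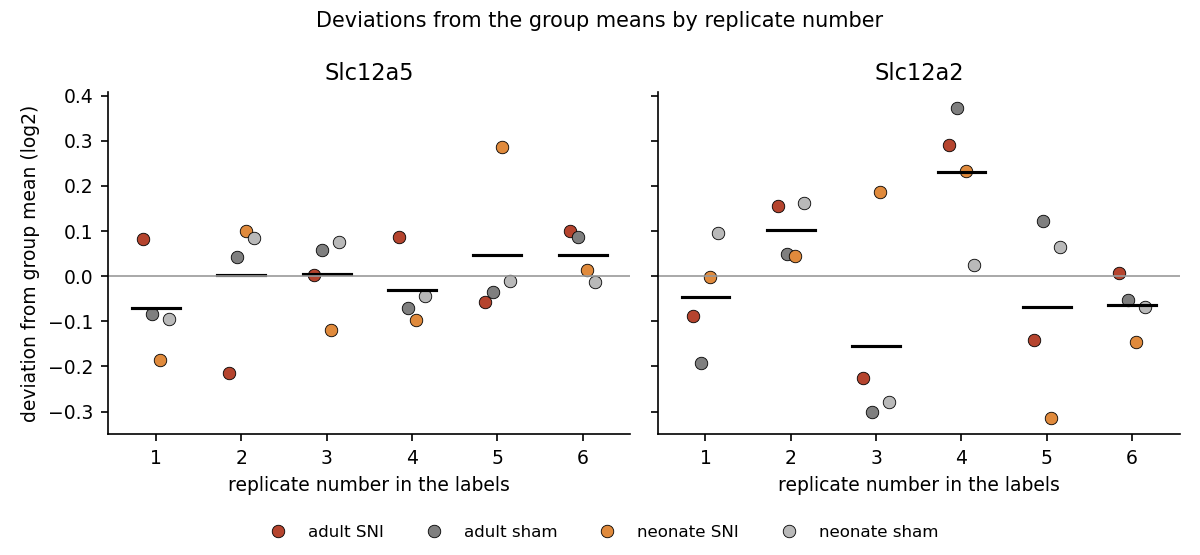
Deviation of each array from its group mean (log2) for Slc12a5 and Slc12a2, by the replicate number in the labels; the bar is the mean of the 4 arrays of a number. For Slc12a2 all 4 arrays numbered 4 and all 4 numbered 2 lie above 0.

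Among the 7006 tested genes, those nearest to each cotransporter were found by the root mean square difference of mean-centred values over the 24 arrays. For Slc12a5, whose own spread by that measure was 0.122 log2, they were Ppcs (0.0951 log2), Dync1i1 (0.0971), Sdr39u1 (0.0981), Ttc3 (0.100) and Trappc11 (0.100). For Slc12a2, with a spread of 0.201 log2, they were Eloc (0.106 log2), Acsl6 (0.133), Ltbp3 (0.142), Actr1b (0.144) and Ptp4a2 (0.146). The distances for Slc12a5 are close to its own spread, which is the distance of a flat profile. None of the 10 genes was called in any of the 5 contrasts.

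Of 5 other cation-chloride cotransporters on the array 2 passed the filter. Slc12a1, the kidney NKCC2, Slc12a3, the thiazide-sensitive NCC, and Slc12a7, KCC4, were below the filter level of 3.84 log2 on all 24 arrays. Slc12a4, the widely expressed KCC1, averaged 4.53 ± 0.024 log2 in adult SNI, 4.45 ± 0.17 in adult sham, 4.67 ± 0.22 in neonate SNI and 4.78 ± 0.24 in neonate sham (SD, n = 6). It was lower in adult than in neonate sham by a difference of -0.34 log2 (SE 0.11, limma adjusted p = 0.0327; 8.81% of all tested probe sets were lower). That call ended, at adjusted p of 0.0502 to 0.0915, without adult sham 1 or 4 or neonate sham 1, 4 or 5, and also with no filter, with only the sham groups in the fit, or with array weights (adjusted p = 0.0512 to 0.0681). Slc12a9, a related protein of unsettled function, differed by 0.19 log2 in adult injury and by -0.19 log2 between sham ages (limma adjusted p = 0.896 and 0.448). The median of these 2 genes was 0.14 log2 in adult injury and -0.26 log2 between sham ages, against -0.026 and -0.032 log2 over all tested probe sets.

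The WNK kinases, and the SPAK (Stk39) and OSR1 (Oxsr1) kinases that they activate, raise NKCC1 activity and lower KCC2 activity by phosphorylation. With their scaffold Cab39 and the ubiquitin ligase parts Klhl2 and Cul3, 8 of 12 listed genes were on the array and 7 passed the filter. None passed the test with injury: 0 of 7 were called in adults (1 at an unadjusted p under 0.05, Wnk2) and 0 of 7 in neonates (0 unadjusted). The share of all tested probe sets called was 2.00% in adult and 0.311% in neonate injury. Wnk2 averaged 6.92 ± 0.26 log2 in adult SNI and 7.38 ± 0.11 in adult sham (difference -0.45 log2, SE 0.13, limma adjusted p = 0.0876). Its dimmer probe set differed by -0.12 log2 (limma adjusted p = 0.898). With age, 3 of 7 were higher in adult than in neonate sham and 0 were lower, where 7.51% of all tested probe sets were higher. Oxsr1 averaged 7.91 ± 0.30 log2 in adult sham and 6.81 ± 0.14 in neonate sham (difference 1.10 log2, SE 0.14, limma adjusted p = 5.05e-06). Wnk1 averaged 10.89 ± 0.14 and 10.25 ± 0.097 log2 in adult and neonate sham (difference 0.64 log2, SE 0.12, limma adjusted p = 4.05e-04), and 0.61 log2 in another probe set. Cab39, which stabilises active SPAK and OSR1, differed by 0.36 log2 (limma adjusted p = 0.0217), but not without adult sham 4 or neonate sham 5 or 6 (adjusted p = 0.0503 to 0.0663) or in its dimmer probe set (0.21 log2, adjusted p = 0.0774). Stk39 differed by 0.25 log2 (adjusted p = 0.144), Cul3 by -0.025 and Klhl2 by -0.039, with 9 arrays of Klhl2 at an identical value.

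After SNI the same age comparison, on other arrays, also called Oxsr1 (1.09 log2), Wnk1 (0.58 log2) and Cab39 (0.34 log2) higher (limma adjusted p = 3.36e-06, 8.72e-04 and 0.0267). SNI and sham arrays of the same replicate number deviated together within an age (mean r 0.380 in adults and 0.448 in neonates). Both age comparisons also took their residual variance from the same fit. They are therefore not independent of each other. The Cab39 call ended without any 1 of 6 arrays, namely adult SNI 1, 2 or 3 or neonate SNI 2, 5 or 6 (adjusted p = 0.0514 to 0.0772). Thus 3 of 7 were higher, where 9.32% of all tested probe sets were, and 1 was lower, where 11.5% were. The lower gene was Wnk2, at a difference of -0.43 log2 (limma adjusted p = 0.0211), lost without adult SNI 3 or neonate SNI 5 (adjusted p = 0.0522 and 0.0628) and 0.023 log2 in its other probe set. The median of the kinase list was 0.25 log2 between sham ages and -0.039 log2 in adult injury, against -0.032 and -0.026 log2 over all tested probe sets.

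**Figure D5:**
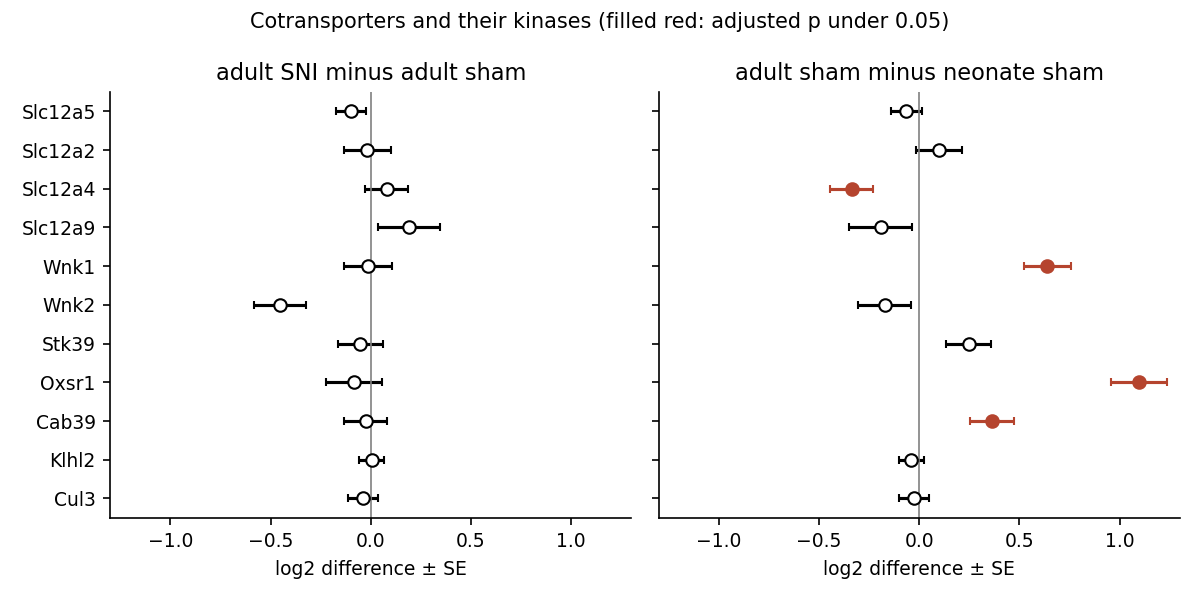
Log2 difference with SE from limma for the cotransporters and their kinases, in adult SNI minus adult sham (left) and adult sham minus neonate sham (right). Filled red points passed at an adjusted p under 0.05: none at the left, and Oxsr1, Wnk1, Cab39 (higher) and Slc12a4 (lower) at the right.

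Of 12 tested partners, proteases, phosphatases and kinases of KCC2, 1 was higher in adult SNI, where 1.95% of all tested probe sets were. Prkcd, the delta isoform of protein kinase C, averaged 7.95 ± 0.20 log2 in adult SNI and 7.40 ± 0.11 in adult sham (difference 0.56 log2, SE 0.093, limma adjusted p = 3.85e-04). In neonates it differed by 0.18 log2 (adjusted p = 1), with 7 of its 24 arrays at an identical value. The list had 0 of 12 called in neonate injury and 0 of 12 between sham ages (0 and 4 at an unadjusted p under 0.05). Over all tested probe sets 0.311% and 16.3% were called in these contrasts. The median of the list in adult injury was -0.065 log2. Of the transcription factors known at the KCC2 gene, Egr4 and Rest were below the filter level. Usf1 and Usf2, which bind E-boxes, differed by -0.14 and 0.069 log2 in adult injury and -0.060 and 0.084 log2 between sham ages, none called (0 of 2 unadjusted in each contrast). Over all tested probe sets 2.00% were called in adult injury.

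The list for BDNF, its receptor and the microglial route to KCC2 had 3 of 11 tested genes higher in adult SNI, where 1.95% of all tested probe sets were. Csf1r, the colony-stimulating factor receptor of microglia, averaged 11.12 ± 0.26 log2 in adult SNI and 9.44 ± 0.13 in adult sham (difference 1.68 log2, SE 0.15, limma adjusted p = 2.84e-08). P2ry12, a purine receptor of microglia, differed by 1.09 log2 (adjusted p = 0.00166). Irf8, a microglial transcription factor, was at least 3.40-fold higher against the filter level, below which all 6 adult sham arrays lay. Only its 6 adult SNI arrays exceeded that level, so it passed the filter through the group where it is high and its call is no support for the count. In neonates Csf1r was higher by 0.99 log2 (adjusted p = 7.99e-04) and P2ry12 by 0.93 log2 (adjusted p = 0.0481), or 2 of 11, where 0.311% of all tested probe sets were higher. The P2ry12 call ended without any 1 of 9 of the 12 arrays (neonate sham 1, 2, 4, 5 or 6 or neonate SNI 3 to 6, adjusted p = 0.0533 to 0.166) and in its other probe set (0.87 log2, adjusted p = 0.452). Bdnf itself, named after its values were seen, averaged 5.14 ± 0.51 log2 in adult SNI and 4.71 ± 0.29 in adult sham (difference 0.43 log2, adjusted p = 0.550), with adult SNI 6 at 6.18 and the other 5 SNI arrays at 4.86 to 5.01 log2. Its receptor TrkB, Ntrk2, likewise named after its values were seen, differed by 0.12 log2 (adjusted p = 0.899). Another tested Ntrk2 probe set differed by -0.16 log2 (limma adjusted p = 0.867). Between sham ages Csf1r was higher in adults by 0.52 log2 (adjusted p = 0.0201, but 0.0624 without neonate sham 6). Itgb1, an integrin chain, was lower at a difference of -0.41 log2 (adjusted p = 0.0199, but 0.0517 to 0.0560 without adult sham 6 or neonate sham 4).

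Genes that power or use the chloride gradient gave few calls with injury. None of 6 sodium-potassium ATPase genes was called in adult or neonate injury (0 at an unadjusted p under 0.05 in each), where 2.00% and 0.311% of all tested probe sets were. Between sham ages Atp1b3, a beta chain, was higher in adults by 0.44 log2 (limma adjusted p = 2.03e-04). Fxyd1, a regulator of the pump, was higher by 0.58 log2 (adjusted p = 0.0315), but not without any 1 of 7 arrays, adult sham 2, 4, 5 or 6 or neonate sham 3, 5 or 6 (adjusted p = 0.0568 to 0.0845). Of 17 chloride channels, anion exchangers and carbonic anhydrases 1 was higher in adult SNI, where 1.95% of all tested probe sets were: Clic1, an intracellular chloride channel protein, was higher by 0.93 log2 (SE 0.13, limma adjusted p = 3.42e-05). In neonate injury 0 of 17 were called (1 at an unadjusted p under 0.05), where 0.311% of all tested probe sets were. Between sham ages Car2, a carbonic anhydrase, was higher in adults by 0.49 log2 (adjusted p = 0.00886). Of 8 genes for GABA-A and glycine receptor subunits and their scaffold gephyrin (Gphn), 0 were called in either injury contrast (0 unadjusted). The share of all tested probe sets called was 2.00% in adult and 0.311% in neonate injury. Glra2, the glycine receptor alpha chain known from immature rodent neurons, was lower in adult sham at a difference of -0.78 log2 (adjusted p = 0.0374), but not without any 1 of adult sham 2, 4, 5 or 6 or neonate sham 3, 5 or 6 (adjusted p = 0.0531 to 0.112).

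The cells that make the cotransporters were followed by marker lists. Of 16 neuron markers 0 were called in either injury contrast (2 and 0 unadjusted), where 2.00% and 0.311% of all tested probe sets were. The mean over these 16 was 11.80 ± 0.11 log2 in adult SNI, 11.87 ± 0.10 in adult sham, 11.79 ± 0.057 in neonate SNI and 11.83 ± 0.097 in neonate sham (SD, n = 6). Slc12a5 minus that mean was 1.85 ± 0.13, 1.87 ± 0.15, 1.91 ± 0.23 and 1.97 ± 0.10 log2 in the same order of groups, so setting it against neurons left the groups within the spread of arrays. Between sham ages 2 of the 16 were called, where 16.3% of all tested probe sets were: Syn2, a synapsin, was higher in adults by 0.44 log2 but differed by -0.34 log2 in its other probe set (limma adjusted p = 0.00635 and 0.189). Stmn2, a stathmin, was lower at a difference of -0.41 log2 (adjusted p = 0.0121), but its other probe set, at -0.31 log2, was not called (limma adjusted p = 0.207). Of 7 immature neuron markers 5 were lower and 1 higher in adult sham. Of 4 excitatory neuron markers 2 were lower and 0 higher, and of 4 inhibitory ones 0 were called. Over all tested probe sets 8.81% were lower and 7.51% higher. Between ages after SNI these lists had the same counts, beside 11.5% lower and 9.32% higher over all tested probe sets. The microglia and macrophage mean over 12 markers was 9.20 ± 0.14 log2 in adult SNI, against 7.12 ± 0.22 in adult sham, and 7.79 ± 0.25 in neonate SNI, against 6.56 ± 0.26 in neonate sham. All 12 were called higher in adult injury, where 1.95% of all tested probe sets were, and 10 of 12 in neonate injury, where 0.311% were. Ptprc and Cx3cr1 exceeded the filter level on only 7 and 9 of the 24 arrays, so their calls add little to these counts. The arrays of the cotransporters overlapped in both contrasts. Astrocytes and oligodendrocytes, which also make NKCC1, had 0 of 10 and 0 of 8 markers called in either injury contrast (1 and 0 unadjusted in adults, 2 and 0 in neonates). The share of all tested probe sets called was 2.00% in adult and 0.311% in neonate injury. Between sham ages S100b and Gfap, both astrocytic, were higher in adults by 0.85 and 0.36 log2 (limma adjusted p = 3.35e-05 and 0.00939, and for Gfap 0.0910 after quantile normalisation). Slc1a3, a glutamate transporter, was lower at a difference of -0.34 log2 (limma adjusted p = 0.0393). The astrocyte list thus had 2 higher and 1 lower of 10, where 7.51% of all tested probe sets were higher and 8.81% lower. Of 8 oligodendrocyte markers 2 were lower and 6 were not called, where 8.81% of all tested probe sets were lower. These 2, Cnp and Mag of myelin, differed by -0.43 and -0.51 log2 (limma adjusted p = 6.30e-04 and 0.0151). Enpp6 and Pdgfra of oligodendrocyte precursors were lower at differences of -0.58 and -0.68 log2 (limma adjusted p = 6.65e-05 and 0.00183). That precursor list had 3 lower and 1 higher of 5, beside 8.81% lower and 7.51% higher over all tested probe sets. The higher one was Bcas1 (0.34 log2, limma adjusted p = 0.0254). Slc12a2 minus the mean of the precursor list lay at 2.02 to 2.66 log2 in adult sham and 1.74 to 2.01 in neonate sham. After SNI it lay at 2.08 to 2.56 log2 in adults and 1.56 to 2.03 in neonates, so the ages did not overlap. The list mean itself was 9.98 log2 in adult sham and 10.28 in neonate sham. Set against the neuron, astrocyte, oligodendrocyte or endothelial list, Slc12a2 overlapped between ages. These differences were not tested. Of the choroid plexus and ependymal markers, an NKCC1-rich tissue, Ttr, Folr1, Kl, Aqp1 and Foxj1 were below the filter level. Tekt1, of motile cilia, was above that level on 15 of 24 arrays, and was higher in adult sham (4.85 ± 0.46 log2) than in neonate sham (3.35 ± 0.42) and in adult SNI (4.37 ± 0.38) than in neonate SNI (3.48 ± 0.61; SD, n = 6; limma adjusted p = 1.81e-04 and 0.0144). All adult arrays of Tekt1 exceeded the level, and both its neonate means lay below it. Tekt1 thus passed the filter through the groups where it is high, so its calls are no support and the size of its differences is not measured. Slc1a3, Bcas1 and Tekt1 were named after their values were seen. The 3′ minus 5′ signal of Actb, a sign of RNA quality, was 0.65 ± 0.12 log2 in adult SNI, 0.75 ± 0.21 in adult sham, 0.57 ± 0.13 in neonate SNI and 0.70 ± 0.075 in neonate sham (SD, n = 6). The same measure was larger for Gapdh, with means of 1.14, 1.17, 1.07 and 1.10 log2 in the same order of groups. For Hk1 it was 2.10 ± 0.36, 2.22 ± 0.24, 1.94 ± 0.39 and 2.18 ± 0.54 log2. The part of cell makeup and RNA quality in the small differences of the cotransporters was not tested.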

How the data were processed

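The deposited log2 values, 1 per probe set and array, were made by the authors with GCRMA (version not given), per the submitters' processing notes. Trizol RNA (5 ug) was labelled and hybridised, per the labels' protocols. The table held 15923 probe sets on 24 arrays; 57 controls were left out, 12783 of the rest had 1 platform symbol, and 12748 of those matched rat genes in RefSeq (GRCr8), with 0 symbols changed. Limma 3.58.1 (R 4.3.3) fitted a mean per group to the 9638 probe sets that exceeded 3.84 log2, the 40th percentile over the table, on 6 or more arrays, with 20 residual and 3.81 prior degrees of freedom. P-values were two-sided and Benjamini-Hochberg adjusted over all tested probe sets, with a threshold of 0.05. The fit was tested on simulated data.

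A gene's brightest probe set stood for it. Named were the cotransporters, all measured family members and WNK-pathway genes, up to 4 called genes of smallest p in other gene lists (2 where none was called), up to 2 per marker list, and the 5 nearest profiles. The members and lists were chosen with earlier results of these data known. Same-numbered SNI and sham arrays deviated together in adults (r = 0.100 to 0.559) and neonates (0.237 to 0.610), all above 0.1, so the number was taken to pair them within an age. Across ages the lowest such r was 0.014, and no pairing was assumed. The mean r of same-numbered arrays was 0.380 within adults and 0.448 within neonates. Across ages the means were 0.265 to 0.398, so arrays of a number deviated together there as well. The main fit used no block. Alternatives were other filters, normalisations, a floor, variance models, blocks and leaving out each array. Figures used matplotlib 3.10.9.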

Additional observations from a re-analysis of the deposited data

Results flagged for a closer look

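No value of Slc12a5 or Slc12a2 stood apart within its group by Dixon's gap test. Among 136 groups of 6 arrays tested for most of the genes named, 7 held an array far from the others, where chance gives about 1 in 20. Bdnf was at 6.18 log2 on adult SNI 6, with the next array at 5.01. P2ry12 was at 8.30 log2 on adult SNI 3, with the next at 7.44, and Fxyd1 at 6.79 log2 on the same array, with the next at 7.41. Usf2 was at 9.79 log2 on neonate sham 1, with the next at 9.46. Irf8 was at 2.92 log2 on adult sham 6, with the next at 3.02, all below the filter level. Klhl2 was at 4.75 log2 on adult sham 6 and Prkcd at 7.46 log2 on neonate SNI 1, where the 5 other arrays of the group shared an identical value of 4.76 and 7.43 log2.

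The fitted injury effect on Irf8 was larger in adults than in neonates by 2.14 log2 and passed limma's test of the difference. All neonate and adult sham arrays lay below the filter level, and Irf8 was tested only because its adult SNI arrays exceeded it. The size of this difference is therefore not measured, and only the bound given for adult injury holds.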

How the results depend on the processing

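Slc12a5 and Slc12a2 were called in none of the 5 contrasts under any alternative run. The Slc12a5 injury difference was -0.12 to -0.062 log2 in adults over the alternatives and -0.12 to -0.056 log2 with 1 array left out. In neonates it was -0.16 to -0.065 log2 with 1 array left out. The Slc12a2 difference in adult injury was -0.077 to 0.058 log2 with 1 array left out, turning positive in 5 of 12 cases. The difference of the injury effects on Slc12a5, 0.0041 log2, was -0.0042 log2 with each array centred on its median and -0.033 to 0.061 log2 with 1 array left out, turning negative in 11 of 24 cases. Slc12a5 between sham ages was -0.14 log2 after quantile normalisation. Slc12a2 between ages after SNI kept 0.13 to 0.24 log2 with 1 array left out (lowest adjusted p = 0.180). With 1 array left out, Slc12a5 minus Slc12a2 changed by -0.17 to -0.0079 log2 in adult injury, -0.12 to 0.075 in neonate injury, -0.24 to -0.076 between sham ages and -0.32 to -0.13 between ages after SNI. Slc12a5 between ages after SNI was then -0.097 to -0.0025 log2, and Slc12a2 between sham ages 0.026 to 0.16 log2. Counts of called probe sets moved most with a filter at the 60th percentile, which tests fewer probe sets (106 in adult injury, 6 for the difference of effects), and with the replicate number as a block in all groups (297 in adult injury, 2468 between sham ages). With the block within each age, 291 were called in adults and 35 in neonates; it changed no call of a gene on the gene lists in the injury contrasts. Of 43 calls of named genes that were rerun, 32 held under every alternative, and 10 were lost without some single array. The calls of Slc1a3, Bcas1 and Tekt1 were not rerun. These repeats for named genes were chosen after seeing the data. Other probe sets of the cotransporters could not be tried, since each has 1. With 6 arrays a group the median 95% interval spans 0.25 log2 on either side.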
